A study of Homo sapiens with 12 samples.

Results

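The regions described here are G-quadruplex pull-down peaks of the HEK 293T genome that lie in long stretches between genes. A peak was counted as far when it was on an autosome and its centre was more than 50000 bases from every gene locus listed in the RNA tables of the series. These tables hold 58083 gene identifiers in 33640 distinct loci. The rule took 4159 of 48428 autosomal peaks (8.59%), out of 51446 peaks in the whole deposited list. Of the other autosomal peaks, 28325 (58.5%) had their centre inside a locus and 15944 (32.9%) were 1 to 50000 bases outside one.

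HEK 293T is an established line of human embryonic kidney origin that expresses the large T antigen of SV40. The series pulled down G-quadruplexes from its genome with a small molecule and measured RNA after a compound known by the code name PDP was added. Both pull-down libraries carry the label annealed, and input DNA was sequenced as 2 further libraries that are not used here. The RNA groups, with 2 libraries each, were a DMSO control kept for 3 h and cells given PDP at 1 µM and kept for 3 h, for 24 h or for 72 h. The labels name no genetic change and no treatment of the cells behind the pull-down. They do not say whether paired libraries came from separate cultures.

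A G-quadruplex is a four-stranded DNA structure in which guanines from several runs of G stack in planar layers. Such runs are frequent near gene starts, in telomeric repeats and in GC-rich tandem repeats. Long intervals without protein-coding genes, called gene deserts, are often AT-rich, and several of them flank developmental regulators whose distant enhancers lie in the desert. Centromeres and the repeats around them also form long intervals without annotated genes.

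The 4 sequences below are the parts of far peaks for which a RefSeq sequence was at hand, and they are shown as examples of captured DNA, not as typical ones. Their scores are all above the upper quartile of far peaks (13.6). They come from RefSeq promoter windows (GRCh38.p14, 250 bases before to 50 bases after a gene start) and are printed 5′ to 3′ on the strand of the RefSeq gene, with runs of 3 or more G or C in capitals. RefSeq places a gene start there although the RNA tables list no locus within 50000 bases.
LOC105378416, chr10:88120100-88120362, plus strand: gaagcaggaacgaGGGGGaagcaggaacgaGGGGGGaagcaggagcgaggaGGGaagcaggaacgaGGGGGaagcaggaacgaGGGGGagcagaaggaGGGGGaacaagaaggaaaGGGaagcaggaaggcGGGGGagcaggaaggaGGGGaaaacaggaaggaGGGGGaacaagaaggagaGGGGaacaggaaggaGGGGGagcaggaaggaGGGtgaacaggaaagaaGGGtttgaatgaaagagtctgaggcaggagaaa
LOC105370299, chr13:86414549-86414814, minus strand: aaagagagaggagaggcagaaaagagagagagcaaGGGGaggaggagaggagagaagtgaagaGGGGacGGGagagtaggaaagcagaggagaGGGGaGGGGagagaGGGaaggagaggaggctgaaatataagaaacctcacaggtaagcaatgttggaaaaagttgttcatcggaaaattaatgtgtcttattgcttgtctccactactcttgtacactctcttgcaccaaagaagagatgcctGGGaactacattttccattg
LOC102723906, chr4:186840412-186840644, plus strand: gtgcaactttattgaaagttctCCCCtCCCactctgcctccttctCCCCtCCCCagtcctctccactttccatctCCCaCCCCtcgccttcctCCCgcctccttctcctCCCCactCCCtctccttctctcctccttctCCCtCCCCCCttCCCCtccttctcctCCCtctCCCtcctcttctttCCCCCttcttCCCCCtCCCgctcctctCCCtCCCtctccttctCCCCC
LOC105378129, chr6:167547391-167547505, plus strand: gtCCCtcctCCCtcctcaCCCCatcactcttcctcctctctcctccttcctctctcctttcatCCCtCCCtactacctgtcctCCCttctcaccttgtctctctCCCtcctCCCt

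Counted over their whole length, all 4 stretches were made mostly of purines on one strand and pyrimidines on the other. The part of LOC105378416 is a tandem repeat with 14 runs of G in 263 bases, 89.0% of them A or G, and its peak had a score of 23.2. LOC102723906 carried 20 runs of C in 233 bases with 91.0% pyrimidines, under a peak of score 19.5. LOC105378129 had 8 runs of C in 115 bases and 91.3% pyrimidines (score 18.75), and LOC105370299 had 7 runs of G in 266 bases and 70.3% purines (score 14.75). The purine-rich sequence of LOC105370299 is in its first part, and the rest is mixed. The score is the authors' own value for a peak. Its unit is not stated.

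Purines or pyrimidines made up at least 70% of the whole sequence in 4 of 4 of these parts. The same held for 45 of 109 parts (41.3%) that other autosomal peaks share with promoter windows, and for 215 of 33725 whole autosomal windows (0.638%). The 70% level was chosen after these values were seen. The usual quadruplex pattern, 4 runs of GGG or longer joined by 1 to 7 bases on either strand, was found in 0 of 4 parts, in 31 of the 109 parts (28.4%) and in 24.9% of all windows. With loops of 1 to 12 bases it was found in 2 of 4 parts (LOC105378416 and LOC102723906), in 45.9% of the 109 parts and in 37.7% of all windows. Windows are 300 bases long and the shared parts are shorter, so the shares are not over equal lengths. Over whole windows, the pattern with loops of 1 to 7 bases was in 2 of the 5 that overlap a far peak (40%). These were LOC102723906 and LOC105378129. It was in 58 of 181 windows that overlap another autosomal peak (32.0%) and in 24.9% of all windows. A whole window can reach beyond its peak. A match describes letters and no match says only that these letters are not in this stretch. Only parts of at least 100 shared bases were read, and the other far peaks have no sequence here.

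The label of the group was checked against RefSeq, since the loci of the RNA tables are one annotation among several. Of the 4159 far peaks, 2139 (51.4%) were also more than 50000 bases from every RefSeq gene, 1310 (31.5%) were within 50000 bases of one, and 710 (17.1%) lay inside one. Of those 710 peaks, 627 were inside a long noncoding RNA gene and 77 inside a protein-coding gene. The RefSeq genes with most far peaks inside were LOC105373592 with 16, LOC105378797 with 13 and IQSEC1 with 11. The distance to coding genes was closer to what the label says, as 4032 far peaks (96.9%) were more than 50000 bases from every RefSeq protein-coding gene. The far peaks are thus far from coding genes and from the tables' loci, but many are not far from every annotated gene. Far peaks with a RefSeq gene within 50000 bases had a median score of 10.7 and the others 10.6. The first group was higher on 14 of 22 autosomes, which did not pass an exact two-sided sign test (p = 0.286).

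Depth is not given in the files, because the peak list holds no reads and the RNA tables hold 1 pooled FPKM value (fragments scaled to transcript length and library size) per gene and condition. The cells were checked by control FPKM at 3 h: of the genes this line is known to express, VIM was at 259, NEFM at 39.1, NEFL at 23.1, KRT18 at 17.6 and PAX2 at 0.896. Of 5 genes of other cell types, GFAP was highest at 0.654 and HBB was at 0. The RNA values and the peak scores are not given per library.

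The 2 pull-down libraries did not rank the far peaks alike. Every peak in the list was merged from both libraries' own peak lists and keeps its serial number in each, called list A and list B here because the file does not tie them to the sample labels. The meaning of the serial number is not stated, but low numbers went with high scores: over the far peaks Spearman's rho between serial number and score was -0.90 for list A and -0.81 for list B, across peaks that are not independent. Expressed as a percent of the highest number on the chromosome, the median far peak stood at 18.6 in list A, against 20.2 for other autosomal peaks. In list B it stood at 34.9 against 24.6.

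Far peaks had higher serial numbers than other peaks in list B. The value was larger for far peaks on 20 of 22 autosomes (exact two-sided sign test p = 0.000121, 0.000525 after Benjamini-Hochberg adjustment over the 26 sign tests of this family). In list A it was smaller on 16 of 22 autosomes, which did not pass (p = 0.0525, adjusted 0.0682, exact sign test). The difference between the lists was tested directly, on another measure. Each serial number was turned into a percentile rank among the merged peaks of its chromosome. The rank of a peak in list B minus its rank in list A had a median of 4.95 percentile points for far peaks and -0.40 for others. This difference was larger for far peaks on 21 of 22 autosomes (exact sign test p = 1.1e-05, not adjusted and outside the 26 tests). Far peaks made up 1401 of the 15680 peaks with a list A number up to 10% of the highest on the chromosome (8.94%, exact 95% interval 8.49 to 9.39) and 828 of the 13445 such peaks in list B (6.16%, 5.76 to 6.58).

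Values also differed by distance band. By band, the list B median was 25.6 inside loci, 33.9 between 50 and 100 kb from a locus, 37.1 between 100 and 200 kb and 34.8 between 200 and 500 kb, while the list A medians were 21.8, 18.7, 18.8 and 18.4. Nearer bands were lower in both lists, with 21.0 (B) and 17.2 (A) up to 10 kb and 24.6 (B) and 17.6 (A) between 10 and 50 kb. The 33 peaks beyond 500 kb were at 27.65 in list B and 11.95 in list A, so neither list moved one way with distance. Peaks inside merged loci of 500000 bases or more had a list B median of 31.6. Against these, far peaks were higher in list B on 12 of 21 autosomes with enough peaks, which did not pass (exact sign test p = 0.664, adjusted 0.69). What sets the lists apart was not tested.

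**Figure D1:**
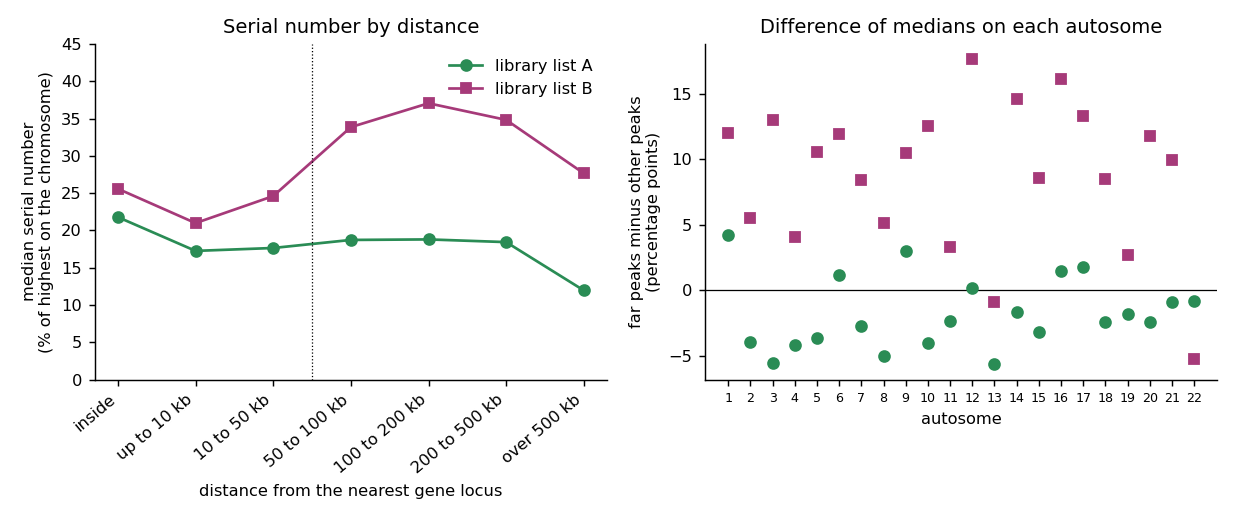
The left panel gives the median serial number, as a percent of the highest on the chromosome, by distance from the nearest locus in library lists A (circles) and B (squares), and the right panel the median of far peaks minus that of other peaks on each autosome, in percentage points; the dotted line is the limit of 50 kb. In list B the difference is above 0 on 20 of 22 autosomes, in list A on 6.

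Far peaks were sparse for the ground they cover. Far territory came to 439 Mb, 15.7% of the autosomal span between the first and last peak or locus end, and held 9.46 peaks per Mb (exact 95% Poisson interval 9.18 to 9.76). Loci held 18.5 peaks per Mb (18.3 to 18.7) and the ground 1 to 50000 bases outside them 19.1 (18.8 to 19.4). The density of far peaks was 0.512 of that inside loci (exact binomial interval 0.496 to 0.529) and 0.495 of that in the flanks (0.478 to 0.512). These intervals cover counting error only.

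Over all territory, every autosome showed the lower density. Far territory had fewer peaks per Mb than loci on 22 of 22 autosomes and fewer than the flanks on 22 of 22, with an exact two-sided sign test p of 4.77e-07 each, the smallest that 22 autosomes can give. Part of the territory is ground where no peak was listed for at least 1 Mb, as in centromeres. The sign tests kept such ground in and were not repeated without it, so they do not separate it from the rest of far territory. Without such stretches far territory shrank to 327 Mb with 12.7 peaks per Mb (12.3 to 13.1), and the ratios became 0.683 to loci and 0.652 to flanks. With RefSeq genes added to the loci, an alternative chosen after the data were seen, the ratios were 0.33 and 0.32. These kept in the stretches without a peak, so the values to set beside them are 0.512 and 0.495. They were not computed without such stretches.

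Density went down with distance. It was 20.8 peaks per Mb in the first 10 kb outside a locus and 17.8 between 10 and 50 kb. It was 14.4 (13.8 to 14.9, 2625 peaks) between 50 and 100 kb and 10.0 (9.44 to 10.6, 1160 peaks) between 100 and 200 kb. Between 200 and 500 kb it was 6.55 (5.87 to 7.28, 341 peaks), or 8.82 without the stretches that hold no peak. Beyond 500000 bases 33 peaks in 88.7 Mb gave 0.372 (0.256 to 0.522), but 10.1 (6.96 to 14.2) in the 3.26 Mb left without those stretches. The low value in the last band thus rests on ground with no peak for at least 1 Mb. Ground left out because it holds no peak can only raise a density, and the intervals do not cover that choice.

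No step stood at the limit of the rule. The 471 peaks 45000 to 50000 bases from a locus had a density of 15.2 per Mb and a median score of 11.0. The 437 peaks at 50000 to 55000 bases had a density of 15.8 per Mb and a median score of 10.8. The median far peak was 84.7 kb from its nearest locus and the upper quartile was 125 kb, with a maximum of 3562 kb.

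**Figure D2:**
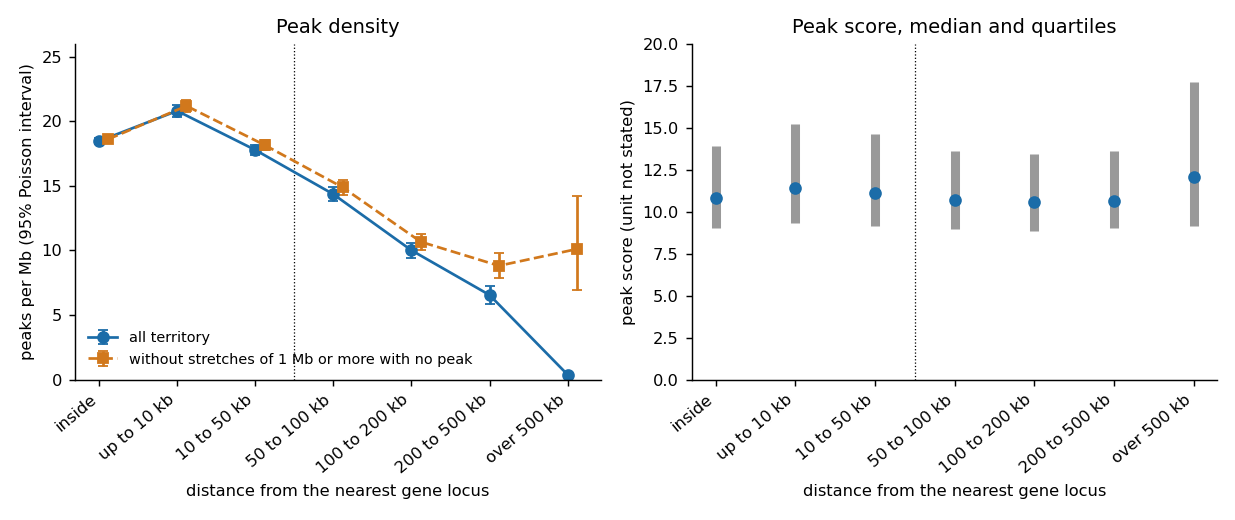
By distance from the nearest gene locus (x axis, the dotted line is the limit of 50 kb), the left panel gives peaks per Mb with exact 95% Poisson intervals, for all territory and without stretches of 1 Mb or more that hold no peak, and the right panel the median peak score (unit not stated) with bars from the lower to the upper quartile. Density goes from 18.5 inside loci to 6.55 between 200 and 500 kb, while the median score stays between 10.6 and 12.05.

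Autosomes differed among themselves. Far peaks per Mb of far territory ranged from 4.78 (4.08 to 5.56) on chromosome 9 to 14 (11.7 to 16.6) on chromosome 20, with 13.6 on chromosome 6. Chromosome 9 has 35.2 Mb of far territory, including an interval of 17420 kb across its centromere without any far peak. By share of a chromosome's own peaks the order was another one. Far peaks were 18.3% of the peaks of chromosome 13 and 17.2% of those of chromosome 18, both poor in genes. They were 1.68% on chromosome 19, which is rich in genes and had 20 far peaks. Over the 22 autosomes the density of far peaks and of other peaks had a Pearson correlation of 0.27 and a Spearman correlation of 0.23, given as a description of points that share libraries.

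**Figure D3:**
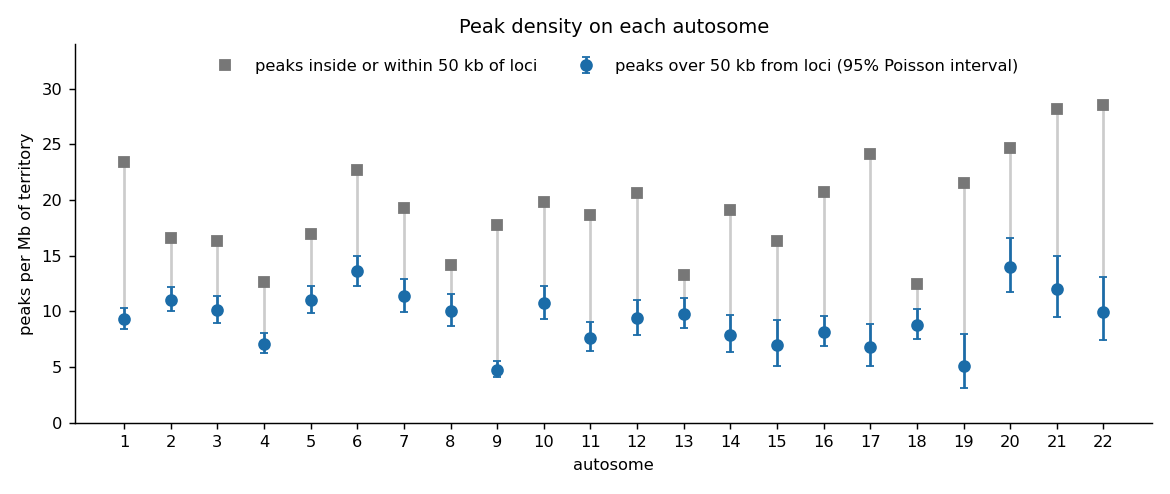
Each of the 22 autosomes on the x axis has its far peaks per Mb of far territory with an exact 95% Poisson interval, beside the density of its other peaks (squares) per Mb of ground inside or within 50 kb of loci (y axis), joined by a line. Over all territory, with ground that holds no peak kept in, far peaks are lower on every autosome, from 4.78 on chromosome 9 to 14 on chromosome 20.

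Near the ends of the span of each autosome the pooled density was higher, but not on all autosomes. Within 5 Mb of an end of the span, far territory held 311 far peaks at 13.6 per Mb (12.1 to 15.2), against 9.24 per Mb (8.95 to 9.53) elsewhere. The ratio was 1.47, with a counting interval of 1.31 to 1.65. Both densities kept in the ground with no peak for at least 1 Mb. The ratio was not computed without that ground, so it does not separate ends from such stretches. The density near ends was the higher one on 15 of 22 autosomes, which did not pass an exact two-sided sign test (p = 0.134). It was the lower one on chromosomes 13, 14, 15, 17, 18, 21 and 22. Some autosomes had very little far territory near the ends, with 0.00325 Mb on chromosome 17 and 0.0431 Mb on chromosome 19, which was among the higher ones. The span starts at the first peak or locus, which need not lie at the end of the chromosome. The median score was 12.7 near the ends and 10.5 elsewhere, and was higher near the ends on 15 of the 17 autosomes with enough peaks (exact sign test p = 0.00235). Both sign tests were chosen after the data were seen. Even so, 7.48% of far peaks were near an end against 11.4% of other peaks.

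Peak strength differed less than peak density. Far peaks had a median score of 10.6 (quartiles 8.93 and 13.6, range 6.61 to 92.9), peaks inside loci 10.8 and peaks in the flanks 11.3. Against all other peaks the far median was lower on 16 of 22 autosomes and did not pass (exact sign test p = 0.0525, adjusted 0.0682). Against flanking peaks it was lower on 18 of 22 and passed (p = 0.00434, adjusted 0.00807, exact sign test), with a median difference of -0.67. Against peaks inside merged loci of 500000 bases or more, which had a median of 10.65, it was lower on 11 of 21 autosomes (exact sign test p = 1). Against peaks inside loci it was lower on 13 of 22 (p = 0.523, exact sign test).

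The highest 10% of autosomal peaks by score held fewer far peaks than their share of 8.59% in the list. Far peaks were 312 of its 4842 peaks (6.44%, exact interval 5.77 to 7.17). In the highest 1% they were 30 of 484 (6.2%, 4.22 to 8.73), an interval that includes the share in the list. These intervals cover counting error only. In the lowest 10% they were 481 of 4843 (9.93%, 9.10 to 10.8). Scores above 30 were reached by 77 far peaks (1.85%) and by 2.46% of other peaks. The mean score was 12.3 for far and 12.9 for other peaks, lower on 17 of 22 autosomes (exact sign test p = 0.0169, adjusted 0.0275).

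Far peaks were also a little narrower. They lay farther apart too, which is not a measure separate from their lower density. The median width was 402 bases, the most common width in the list, against 407 for other peaks, and was lower on 17, higher on 3 and tied on 2 autosomes (exact sign test p = 0.00258, adjusted 0.0067). Against peaks inside merged loci of 500000 bases or more, with a median of 405, it was lower on 13, higher on 5 and tied on 3 autosomes and did not pass (exact sign test p = 0.0963, adjusted 0.119). Of far peaks 49.4% were wider than 402 bases, against 53.6% of others. The nearest other peak was at a median of 22.3 kb for far and 15.6 kb for other peaks, higher on 19 of 22 autosomes (exact sign test p = 0.000855, adjusted 0.00278). Against peaks in those long loci, at 18481 bases, it was higher on 16 of 21 (exact sign test p = 0.0266, adjusted 0.0384). Far peaks still had neighbours: 1082 of them (26%) had another peak within 10000 bases, against 34.4% of others. At the other end 433 (10.4%) had none within 100 kb, against 3.82%.

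The peaks of highest score are given one by one, with coordinates as listed on GRCh38.p7, the build in the submitters' processing notes. The highest was chr21:43262396-43262798, with a score of 92.9 and serial number 7 in both lists. It lies 59819 bases from LINC00322, a long intergenic noncoding RNA gene, and on its other side 89792 bases from CRYAA, which encodes a lens crystallin. Both genes are listed at 0 FPKM in the control. The nearest RefSeq gene is 48448 bases from this peak. The next, chr7:152912377-152912779, had a score of 67.55, serial number 5 in both lists, and lay 57200 bases from ACTR3B, which encodes an actin-related protein. Of the 5 strongest peaks, ACTR3B is the single nearest gene with RNA in the tables.

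The other 3 of these peaks had nearly equal scores. The peak chr5:3323600-3324002 scored 63.7 (serial numbers 3 and 2), 93350 bases from the locus of LINC01019, LINC02162 and LINC01017. The peak chr20:28495273-28495675 scored 63.3 (1 and 4), 85234 bases from the pseudogene FRG1CP and beside the centromere. The peak chr1:29554277-29554701 scored 63.2 (13 and 10), 57596 bases from ENSG00000225011 and 29388 bases from the nearest RefSeq gene. All 5 had serial numbers of 13 or lower in both lists.

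The farthest peaks were a cluster beside the centromere of chromosome 1. The peak chr1:125142607-125143009 was 3562284 bases from LINC01691, with a score of 20.05 and serial numbers 408 and 1365. The peaks chr1:125097782-125098184 (3517459 bases, score 21.85) and chr1:125064159-125064561 (3483836 bases, score 10.515) followed. In all, 9 far peaks were more than 1 Mb from a locus, on chromosomes 1, 15 and 7. How reads with several matches were treated is not given in the sources used here.

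Far peaks were unevenly spread over the intervals between loci. Of 2930 intervals with far territory, 1638 held at least 1 far peak, 705 of them exactly 1, and 1292 held none. The intervals with a far peak had a median of 115 kb of far territory and those without 30.8 kb. A small set of 33 intervals with 10 or more far peaks held 443 of the 4159. Among the 92 intervals with at least 500 kb of far territory, the density had a median of 5.67 per Mb (quartiles 1.09 and 8.90) and ran from 0, in 11 of them, to 32.9. Long intervals thus differ widely in how many peaks they hold. Intervals across centromeres were kept in, such as that of 17420 kb on chromosome 9, which held no far peak.

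The 3 intervals with most far peaks were on chromosomes 18 and 2. The interval chr18:37673177-38655207, between the ribosomal protein pseudogene RPL12P40 and ENSG00000268566, held 29 far peaks at 32.9 per Mb, with a median score of 11.45 and a maximum of 43.7. The interval chr2:121796703-123065319, between the noncoding genes LINC01823 and LINC01826, held 24 at 20.5 per Mb, with a median score of 10.0. The interval chr18:40144505-41465781, between the pseudogene RPL17P45 and KC6, held 23 at 18.8 per Mb, with a median score of 12.75. Chromosome 18 as a whole had 8.78 far peaks per Mb.

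**Figure D4:**
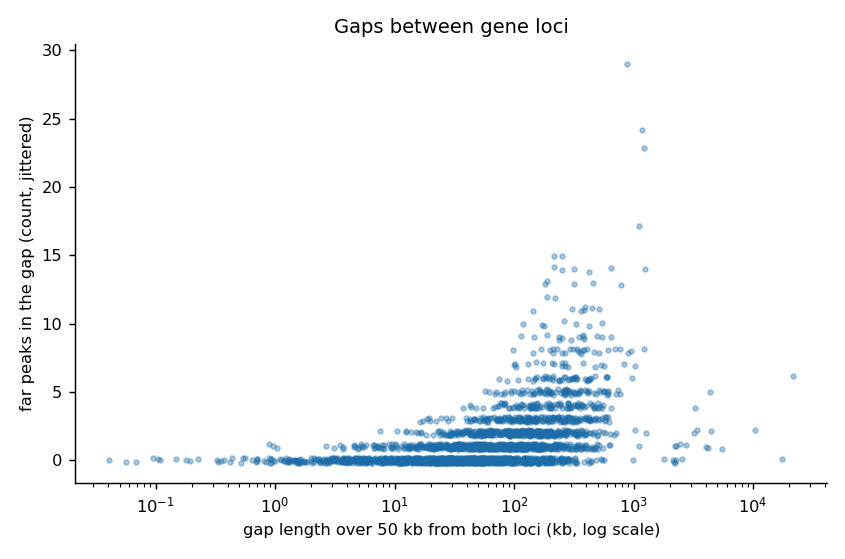
Each point is 1 interval between loci, or between a locus and the end of the span, with its far territory in kb on a log x axis and its number of far peaks on the y axis, jittered for display. Most intervals hold 0 or 1 far peak, and the highest count is 29.

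The RNA tables tell which genes border the far peaks. The nearest loci, 2156 in all, hold 3426 genes, of which 373 (10.9%) had a control value of at least 1 FPKM, against 23.2% of all genes. At 0 FPKM were 79.5% of these genes and 62.2% of all. The median far peak was 298 kb from the nearest locus with a gene at 1 FPKM or more. For 1357 far peaks (32.6%) that distance was over 500 kb, and for 568 (13.7%) it was over 1 Mb. The nearest loci to most far peaks were all listed at 0 FPKM: LINC01823 with 21 far peaks, the pseudogene RPL17P45 with 18, the microRNA gene MIR302F with 17, and RPL12P40 and ENSG00000268566 with 16 each. Libraries of polyadenylated RNA do not measure a mature microRNA.

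The question whether PDP moves the genes beside far peaks was read from the authors' tests of PDP against the control. The control is the same in the 3 tables, since its values differ by a constant factor of 1.04 between the 24 h and 3 h tables (SD 0.00084 on the log2 scale, 13455 genes), and the DMSO group was held for 3 h. Differences at 24 h and 72 h therefore include any change over time in culture, which cannot be told apart from PDP. In these bulk libraries fewer cells with a transcript and less of it per cell cannot be told apart either. A gene was called when the authors' deposited table gives a q-value under 0.05. Fold changes were computed from the deposited FPKM, and each standard error (SE) is the one implied by the deposited test statistic.

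At 3 h none of the 404 tested genes nearest to far peaks was called in the authors' deposited table, a Cuffdiff test by its columns, where 0.115% of all genes tested were called (0.108% higher and 0.00678% lower with PDP). Of the 404, 9 had an unadjusted p under 0.05 in the authors' deposited table, against 282 of 14751 among all genes tested. At 24 h 93 of 430 (21.6%) were called in the authors' deposited table, against 17.5% of all genes. Of these 59 were higher with PDP (13.7%, against 9.21%) and 34 lower (7.91%, against 8.29%). At 72 h 140 of 432 (32.4%) were called in the authors' deposited table, against 31.8%, with 89 higher (20.6%, against 19%) and 51 lower (11.8%, against 12.8%). The median log2 fold change was 0.11 for these genes and -0.0036 for all genes at 24 h, and 0.14 and 0.13 at 72 h. The share called was near the background at 72 h and above it, among genes higher with PDP, at 24 h, with no test of that difference.

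**Figure D5:**
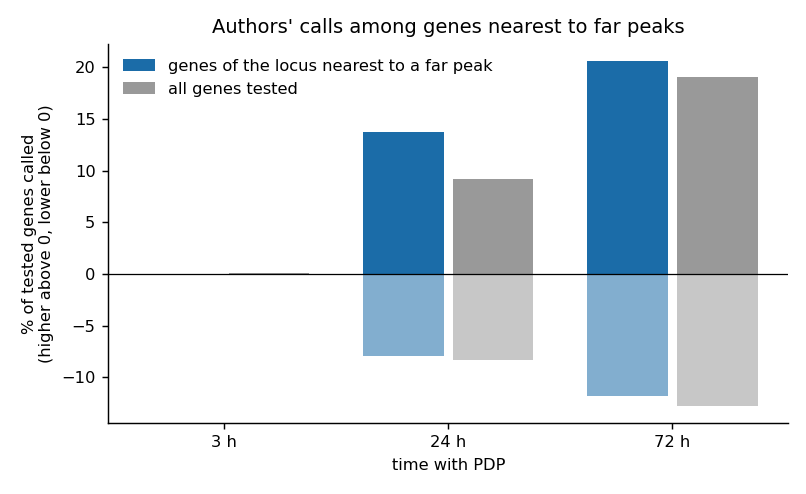
Bars give the percent of tested genes that the authors' tables call higher or lower with PDP at 3 h, 24 h and 72 h, for genes of the locus nearest to a far peak (blue) and for all genes tested (grey), with lower genes drawn below 0 in a lighter shade. At 24 h 13.7% of the nearest genes are higher against 9.21% of all genes, and at 72 h 20.6% against 19%.

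Of the 4 named genes called higher at 24 h, 3 were under 1 FPKM in the control, while the 3 named genes called lower were at 18.0 FPKM or more. MYEOV went from 0.261 to 1.70 FPKM, with an SE (3.39) above its log2 fold change of 2.70. TRMT9B, a gene of a tRNA methyltransferase family, went from 0.381 to 2.11 FPKM (2.47, SE 1.07) and the antisense gene MATN1-AS1 from 0.392 to 1.92 FPKM (2.29, SE 1.00). The ribosomal protein pseudogene RPL13AP25 went from 7.35 to 28.3 FPKM (1.94, SE 0.36), and reads of its parent gene or of other copies may be counted with it. MATN1-AS1 had 8 far peaks nearest to it, and whether the authors' counting used the strand is not given in the sources used here.

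Lower at 24 h was ZBED5, a gene derived from a transposase, from 40.9 to 18.5 FPKM (a log2 difference of -1.15, SE 0.26). GPAM, a mitochondrial glycerol-3-phosphate acyltransferase, went from 18.0 to 9.58 FPKM (-0.91, SE 0.22). GAS1, a membrane protein that binds hedgehog ligands, went from 18.9 to 10.2 FPKM (-0.89, SE 0.24). Each of these 3 had 1 or 2 far peaks nearest to its locus, at 59406 to 78191 bases.

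At 72 h the increase with the smallest SE of the 4 named was in PCDH10, a protocadherin of neural cells next to a gene desert on chromosome 4. It was at 8.07 FPKM with PDP against 7.17 in the control at 3 h, 12.03 against 7.44 at 24 h and 49.2 against 6.94 at 72 h (a log2 difference of 2.82, SE 0.27). It was called at 24 h and 72 h in the authors' deposited table. PTHLH, which encodes parathyroid hormone-related protein, went from 0.0659 to 1.67 FPKM with an SE (5.38) above its log2 fold change of 4.66, and MYEOV from 0.244 to 1.59 FPKM, again with a large SE (3.73). ENSG00000272341 went from 0.989 to 6.09 FPKM (2.62, SE 0.42) and had 4 far peaks nearest to it.

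Lower at 72 h were ZNF804A, a zinc finger protein, from 1.28 to 0.202 FPKM (a log2 difference of -2.66, SE 0.57), and FLRT3, a membrane protein of cell adhesion and axon guidance, from 4.58 to 0.919 FPKM (-2.32, SE 0.48). XXYLT1, a xylosyltransferase acting on Notch, went from 10.2 to 2.16 FPKM (-2.24, SE 0.55). HFM1, a helicase of meiosis, went from 1.98 to 0.495 FPKM (-2.00, SE 1.49). A table locus can hold several genes, so the far peak nearest to a locus need not be near each gene in it; the locus that holds FLRT3 runs from 13849246 to 16053197 on chromosome 20. ACTR3B, beside the second strongest far peak, was at 14.4 FPKM with PDP against 15.1 at 3 h, 15.8 against 15.7 at 24 h and 7.47 against 14.6 at 72 h (a log2 difference of -0.97, SE 0.34, called in the authors' deposited table at 72 h). KC6, at the edge of the third interval, was not called at 3 h, 24 h or 72 h in the authors' deposited table.

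Developmental transcription factors are often neighbours of gene deserts. Of 139 such genes in the tables, 13 (9.35%) were in a locus nearest to a far peak, against 5.90% of all genes. Of 8 tested, none passed at 3 h in the authors' deposited table, and none had an unadjusted p under 0.05. At 24 h 2 (25%, against 17.5% of all genes tested) were called in the authors' deposited table: IRX6, a homeobox gene, went from 0.831 to 1.56 FPKM (a log2 difference of 0.91, SE 0.46), and NR2F2, an orphan nuclear receptor, from 55.5 to 35.6 FPKM (-0.64, SE 0.29). At 72 h 2 (25%, against 31.8% of all) were called in the authors' deposited table, IRX6 from 0.776 to 2.45 FPKM (1.66, SE 0.44) and ZNF521, a zinc finger protein with 5 far peaks nearest to it, from 2.76 to 5.59 FPKM (1.02, SE 0.63). LHX2, TBX18, FOXP1, FOXP2 and ZFPM2 were not called at any time.

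Many adhesion and synapse genes are long and next to gene-poor ground. Of 114 adhesion and synapse genes, 16 (14.04%) were in a locus nearest to a far peak, against 5.90% of all genes. Of 7 tested, none passed at 3 h in the authors' deposited table, and none had an unadjusted p under 0.05. At 24 h 2 of 7 (28.6%, against 17.5% of all genes tested) and at 72 h 3 of 7 (42.9%, against 31.8%) were called in the authors' deposited table. PCDH10 and PCDH20, both protocadherins, were called higher at 24 h and 72 h in the authors' deposited table. PCDH20 went from 1.21 to 3.18 FPKM at 24 h (a log2 difference of 1.39, SE 0.31) and from 1.13 to 1.80 FPKM at 72 h (0.68, SE 0.33). ROBO1, an axon guidance receptor, was at 27.9 against 27.4 FPKM at 24 h and was called in the authors' deposited table at 72 h, from 25.6 to 44.5 FPKM (0.80, SE 0.32). CDH2, the N-cadherin gene, had 10 far peaks nearest to it, and was at 17.0, 17.7 and 17.9 FPKM with PDP against 17.1, 17.8 and 16.6 in the control.

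Long intergenic noncoding genes made up 346 of the 3426 nearest genes (10.1%, against 3.89% of all genes). Of the 2257 in the tables, 15.3% were in a locus nearest to a far peak, against 5.90% of all genes. Of 7 tested at each time, none passed at 3 h in the authors' deposited table, and none had an unadjusted p under 0.05. Calls in the authors' deposited table were 2 of 7 at 24 h (28.6%, against 17.5% of all genes tested) and 3 of 7 at 72 h (42.9%, against 31.8%). LINC01419 was called higher at 24 h (0.660 to 1.996 FPKM) and 72 h (0.615 to 1.66 FPKM) in the authors' deposited table. LINC01876 was called higher at 24 h in the authors' deposited table (0.907 to 2.91 FPKM). At 72 h LINC01515 was called higher (9.501 to 15.4 FPKM) and LINC01234 lower (10.3 to 4.22 FPKM) in the authors' deposited table. Most of the other noncoding neighbours had too little RNA to be tested.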

How the data were processed

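The pull-down was read from 1 deposited peak list that merges both libraries, and RNA from 3 deposited tables, 1 per time point. Per the submitters' processing notes, the genome build was GRCh38.p7 and the tools included HOMER 4.9.1, Bowtie2 2.2.9 and HISAT2 2.0.5, with Cufflinks 2.2.1, Trim Galore 0.4.4, Picard and SAMtools 1.3.1; their settings and order are not given in the sources used here. In the peak list the authors' deposited score is 1 value per merged peak, of no stated unit, and the identifiers of both library lists stand beside it. Per the file headers, the RNA tables hold 1 FPKM value per condition, with its replicates pooled, along with a p-value and a q-value from the authors' own test. The test statistic, a score that the authors deposited, gave each SE: the log2 ratio over that statistic. The authors' fold change column holds text in places, so fold changes were computed from FPKM. Depth per library is unknown.

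Distances run from a peak's centre to the nearest locus in the 3 h table. Territory runs from the first to the last peak or locus end of an autosome. Densities have exact 95% Poisson intervals, and their ratios exact binomial ones. Scores, widths, spacing and serial numbers were compared by exact two-sided sign tests over autosomes, of median differences within a chromosome. Peaks on 1 autosome share libraries and neighbours, so tests ran over autosomes, and the intervals over peaks cover counting error only.

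No genome sequence was used, so the motif search planned over peaks was not run, and stretches of unknown bases stayed in the territory. RefSeq GRCh38.p14 gave gene positions and promoter windows; 6719 of 6719 single-gene loci with a RefSeq match overlapped it, 96.9% with an end within 1000 bases. Biotypes were known for 62.1% of nearest genes, under the 80% needed, so that check is void.

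Named were the 5 far peaks of highest score, the 3 farthest, the 3 intervals with most far peaks, the genes beside them, the 5 loci nearest to most far peaks, and at each time up to 4 nearest genes called higher and 4 called lower with the largest fold change and at least 1 FPKM in either condition. A gene that this rule takes is not reported here. Genes of the lists that were called, and IQSEC1, LOC105373592 and LOC105378797, were named after their values were seen. The far peaks and the gene lists were chosen with earlier results of these data known. Alternatives changed the distance, the loci, the comparison group, the summary and the call. The steps were tested on simulated data. Computation used SciPy 1.17.1, pandas 2.3.3 and NumPy 2.4.6 under Python 3.11.15, and figures Matplotlib 3.10.9.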

Additional observations from a re-analysis of the deposited data

How the results depend on the processing

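Of 78 alternatives computed, 61 kept the direction, the side of the threshold and, for counts, stayed within 1.5 times the reported value. The number of far peaks was 7627 beyond 25000 bases, 1534 beyond 100000 bases, 19735 when only loci with an expressed gene counted, and 2139 with RefSeq genes added to the loci, the last chosen after seeing the data. The score difference passed the sign test against flanking peaks (-0.67) and with the mean of log2 scores (-0.044). The list A difference was 1.94 against flanking peaks, the opposite direction, and passed at -2.62 beyond 25000 bases, -2.68 with expressed loci and -3.33 against long loci. Against long loci the list B difference was 1.34 and the width difference -1 bases, and neither passed; the long-locus comparisons were chosen after seeing the data. The cause was not tested for any of these.

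Called nearest genes at 3 h numbered 1 of 567 (0.176%, background 0.115%) when the nearest locus on each side counted. It was the pseudogene BCLAF1P2, called in the authors' deposited table, from 0.854 to 2.29 FPKM, and named after its values were seen. In the authors' deposited table, 44 were called at 24 h under a q of 0.01 (10.2%, background 9.89%) and 35 with a log2 change of at least 1 (8.14%, background 5.91%). At 72 h these counts in the authors' deposited table were 92 (21.3%, background 21.8%) and 72 (16.7%, background 15.3%), as both rules are stricter.

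No paired analysis was possible because the groups with shared replicate numbers have no values per library: each RNA table holds a single pooled value per condition, and the peak list 1 score per merged peak and no input value. Within the pull-down, the serial numbers of lists A and B are the values per library, and the report gives each list alone and their difference. Depth was not checked.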

Other observations

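The X chromosome was outside the rule. By the same distance, 434 of its 2951 peaks (14.7%) were more than 50000 bases from every locus, with a median score of 10.2 against 11.2 for its other peaks and a maximum of 32.45.

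Outside the rule for named intervals, the interval chr5:171457624-171773650 beside FGF18, a fibroblast growth factor gene, held 15 far peaks at 69.4 per Mb with a median score of 14. The interval chr22:48898387-49213909, beside LINC01310, held 14 at 65.0 per Mb. Both were chosen after their values were seen, among the 12 intervals with most far peaks.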
